A study of Caenorhabditis elegans with 2 samples.

Results

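The genes described here are 10 C. elegans genes of the endoplasmic reticulum (ER) protein-import and quality-control machinery, out of 19973 nuclear protein-coding genes in the annotation. They encode 2 subunits of the SEC61 channel (sec-61.A, sec-61.G), the 4 subunits of the translocon-associated protein complex TRAP (trap-1, trap-2, trap-3, trap-4), a pair of BiP chaperones (hsp-3, hsp-4) and a pair of CDC48 ATPases (cdc-48.1, cdc-48.2). All 10 were found by gene name. They were selected on measured values, since most of them were already known to carry peaks in these data. Their peaks are therefore a description and were given no test. For each gene, every peak with a summit (the position of highest signal) from 500 bp before to 500 bp past the gene was taken.

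The peaks come from chromatin immunoprecipitation followed by sequencing (ChIP-seq) of the protein encoded by Y53G8AR.9. In strain RW12264 (allele st12264, on chromosome III), a TY1, EGFP and 3xFLAG tag had been inserted into that gene with CRISPR, and tagged chromatin was precipitated from whole young adults aged 64 hours with an antibody against GFP. The worms had been synchronised by starving L1 larvae after bleaching, and chromatin was sonicated to 200 to 800 bp. There was 1 group with 2 biological replicates, all carrying the tag, so no comparison of conditions exists and signal from different tissues of the animal is merged. A control experiment named in the labels as possible was not used here. The lists hold no read counts, so library depth is unknown and no counting interval is given.

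Proteins that enter the secretory pathway pass through the SEC61 channel in the ER membrane, whose pore is formed by the alpha subunit and braced by the small gamma subunit. TRAP sits beside the channel and assists the entry of some precursors. BiP is the HSP70 chaperone of the ER lumen, and C. elegans has a pair of genes for it, of which hsp-4 is a widely used reporter of the unfolded protein response (UPR). CDC48, called p97 or VCP in mammals, uses ATP to pull ubiquitinated proteins out of membranes and complexes, including misfolded proteins removed from the ER.

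Sequences under the peaks are shown first, because these are the stretches of DNA on which the positions reported here rest. Each of the first 5 covers 50 bp to each side of the summit of the peak before the gene's start. They are written 5′ to 3′ on the strand of the gene and were read from RefSeq's WBcel235 genome, the assembly also called ce11. Capitals mark bases within the 8-base words that at least 3 of the 7 such windows share, on either strand. The cdc-48.1 window holds none of these words. The sixth window is from cdc-48.2, at the distance from its start that the cdc-48.1 summit has from the cdc-48.1 start, and is shown as the counterpart of the strongest peak. Their places are chrV:10897320-10897420 on the minus strand (sec-61.G), chrX:768212-768312 on the minus strand (trap-2), chrIV:2389091-2389191 on the plus strand (trap-3), chrIII:11920403-11920503 on the plus strand (trap-4), chrII:10563528-10563628 on the minus strand (cdc-48.1) and chrII:8138275-8138375 on the plus strand (cdc-48.2).
sec-61.G: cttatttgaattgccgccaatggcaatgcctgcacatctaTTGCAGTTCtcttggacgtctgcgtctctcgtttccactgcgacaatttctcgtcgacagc
trap-2: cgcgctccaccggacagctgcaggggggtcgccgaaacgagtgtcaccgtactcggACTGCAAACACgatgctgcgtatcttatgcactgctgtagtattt
trap-3: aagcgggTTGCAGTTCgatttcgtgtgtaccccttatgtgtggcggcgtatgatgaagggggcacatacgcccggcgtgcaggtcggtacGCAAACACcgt
trap-4: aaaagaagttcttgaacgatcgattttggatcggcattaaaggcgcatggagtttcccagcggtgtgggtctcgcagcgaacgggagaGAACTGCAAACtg
cdc-48.1: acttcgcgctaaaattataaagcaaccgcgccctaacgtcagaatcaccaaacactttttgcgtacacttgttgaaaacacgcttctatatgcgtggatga
cdc-48.2: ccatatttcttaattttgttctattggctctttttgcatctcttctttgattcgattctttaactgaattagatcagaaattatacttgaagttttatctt

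The BiP genes are shown over the 150 bp before their outermost annotated starts, because both hold the core of the UPR element there (TGACGTG, searched on both strands, in capitals), the sequence associated with the transcription factor XBP1. The hsp-3 stretch is chrX:6092125-6092274 and the hsp-4 stretch chrII:7352646-7352795, both on the minus strand and written 5′ to 3′ along the gene, from the same RefSeq genome. In hsp-4 the element lies in the opposite orientation.
hsp-3: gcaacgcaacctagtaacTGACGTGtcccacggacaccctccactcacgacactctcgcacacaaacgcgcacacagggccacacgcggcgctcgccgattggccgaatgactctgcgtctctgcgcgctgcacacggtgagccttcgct
hsp-4: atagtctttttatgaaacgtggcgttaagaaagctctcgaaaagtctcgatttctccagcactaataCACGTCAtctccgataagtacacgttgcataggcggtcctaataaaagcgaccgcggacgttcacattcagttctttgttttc

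Of the 10 genes, 8 had at least 1 peak in the conservative list, the authors' 2742 peaks that passed a threshold on the ranking of peaks in both replicates. The 2 without one were hsp-4 and cdc-48.2. Among all coding genes, 12.4% had such a peak in the same window. Because that list was used to choose the genes, nothing is read from the difference. The other series-wide thresholded list held a peak for 9 of the 10, with cdc-48.2 added, against 12.5% of all coding genes.

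Replicate 1's own thresholded list had a peak for 8 of the genes, against 7.30% of coding genes, and replicate 2's list for 7, against 6.55%. The gene missing from replicate 2 was sec-61.A. The 7 genes called in both replicates' own lists, sec-61.G, trap-1, trap-2, trap-3, trap-4, hsp-3 and cdc-48.1, compare with 4.79% of all coding genes. These lists share reads with the list on which the genes were chosen, and their counts are given as a description too.

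The strongest conservative peak of each of the 8 genes had a signal between 78.0 and 542, with a median of 163. Over all 2482 coding genes with a conservative peak the range was 2.34 to 883 and the median 80.1. Signal is the value given by the authors' peak caller, in arbitrary units of a scale that is not stated. It is used only to describe and rank peaks within a list. Where no replicate is named, the value comes from the lists of both replicates, in which signals run higher than in those of single replicates.

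**Figure D1:**
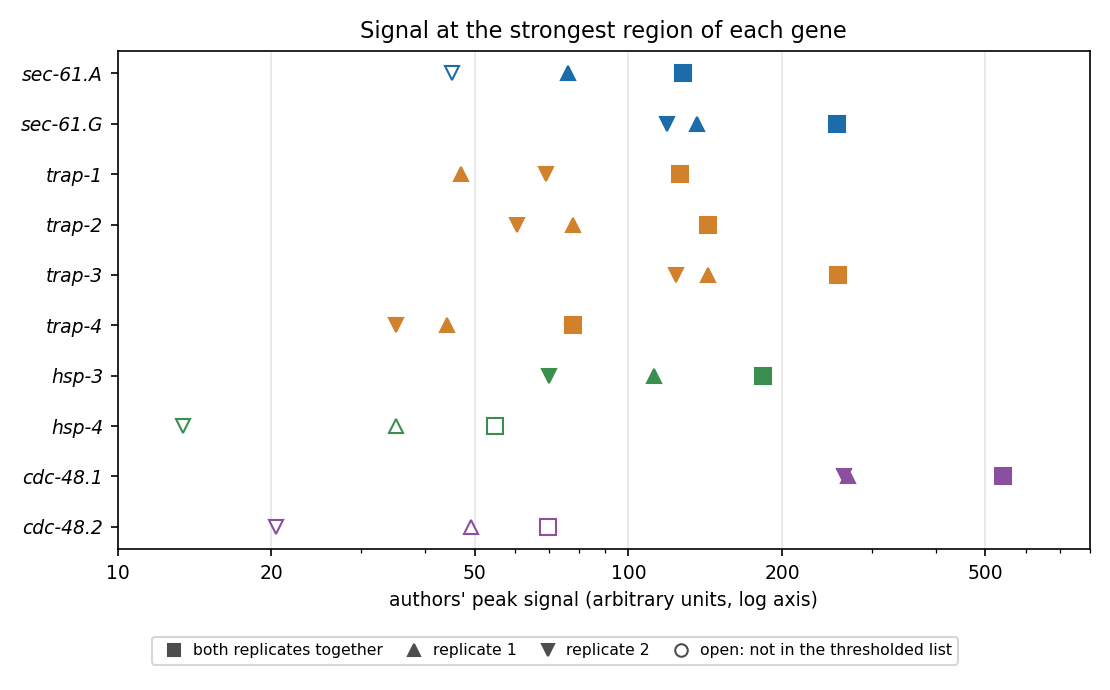
Signal of the strongest region of each of the 10 genes (arbitrary units, log axis), with squares for both replicates together and triangles for each replicate's region overlapping it. Open symbols mark regions outside the thresholded list, and hsp-4 and cdc-48.2 are open throughout, whereas cdc-48.1 stands highest at 542.

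The conservative peaks lay near the starts and ends of the genes. The 8 genes held 14 conservative peaks. Of these, 8 were nearest a coding start, all upstream of it, and 6 were nearest the gene's end. A further 0 lay more than 500 bp inside the gene from both. The 8 at the start side include the overlapping trap-1 peaks of 84.0 and 2.90. No share of all conservative peaks is given here for the upstream and inside counts. A peak at the start side was found for 7 genes (all but sec-61.A, hsp-4 and cdc-48.2), against 6.36% of all coding genes. A peak at the end side was found for 6 genes (sec-61.A, trap-1, trap-3, trap-4, hsp-3 and cdc-48.1), against 6.82%. For 5 genes (trap-1, trap-3, trap-4, hsp-3 and cdc-48.1) both sides had one, against 1.86%. This division into sides was made after the positions had been seen. Sec-61.G (486 bp), trap-3 (815 bp) and trap-4 (852 bp) are too short to hold a position more than 500 bp from both ends. Trap-2 (1047 bp) has little room for one, so the absence of inner peaks says nothing about these genes.

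**Figure D2:**
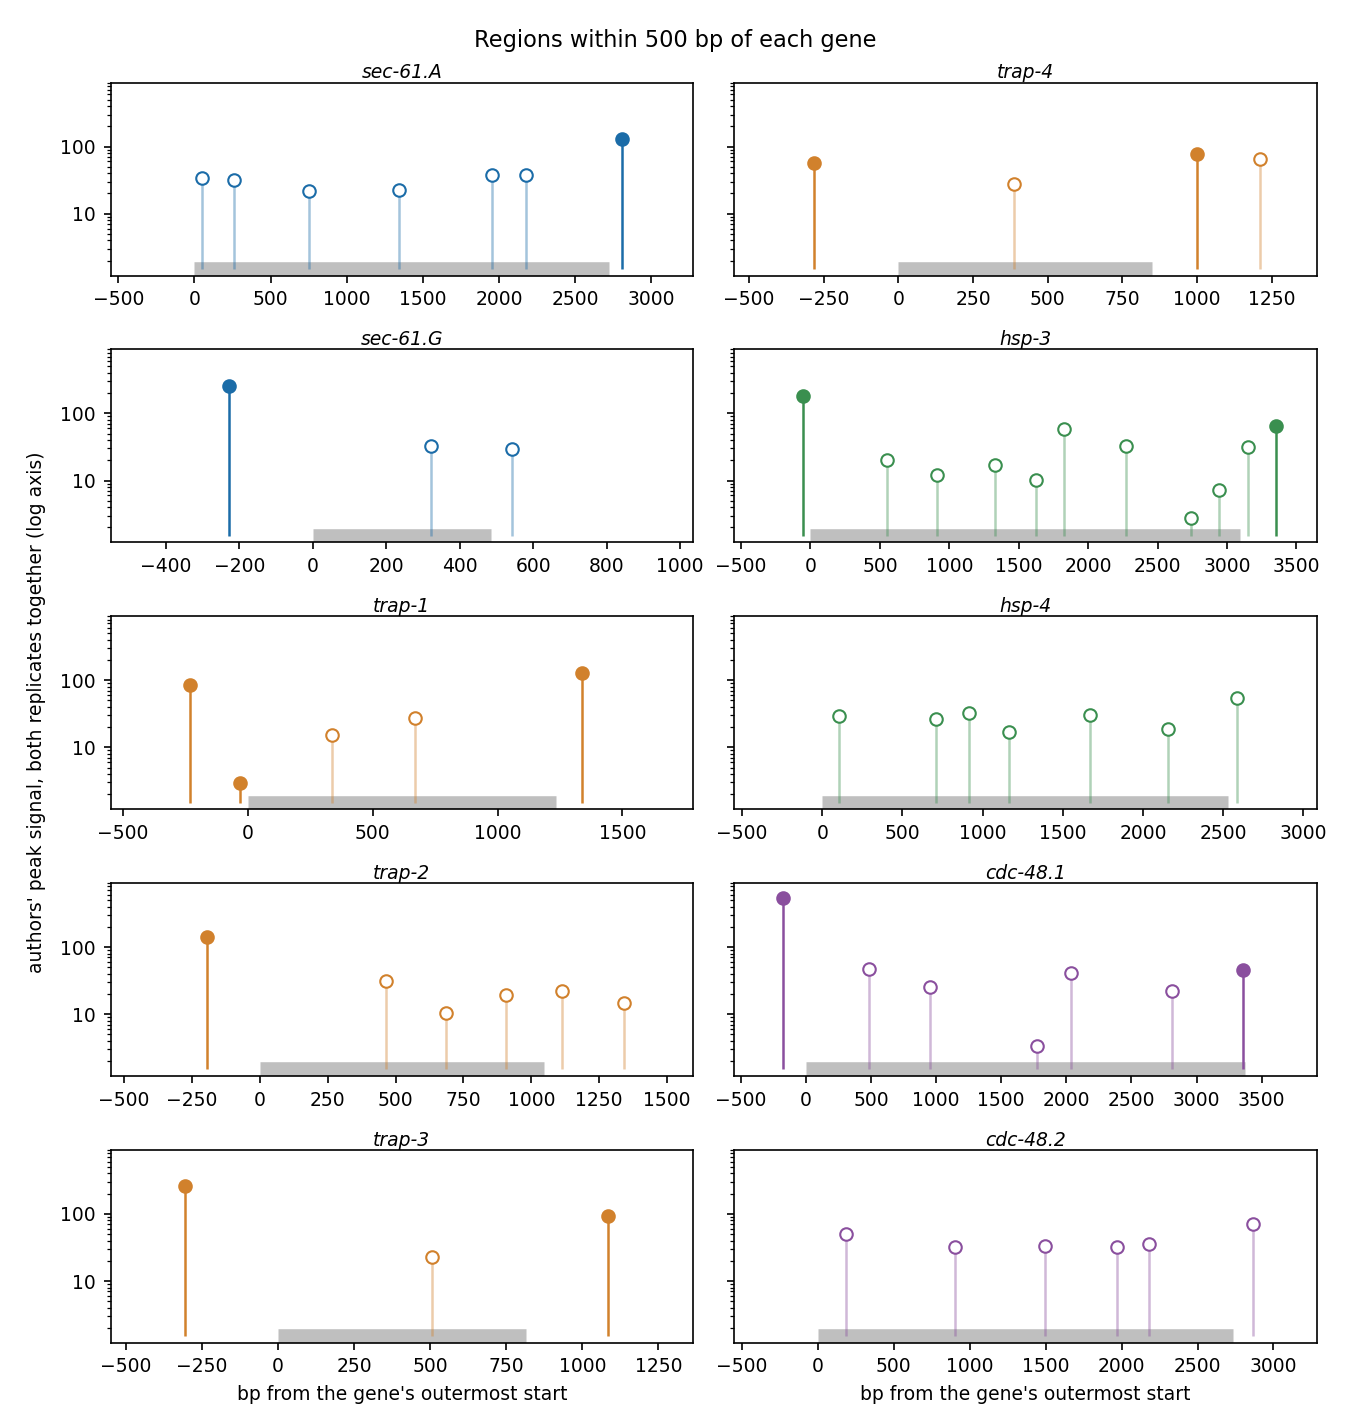
Position of each conservative peak (filled) and of each region in the ranked list alone (open) along the 10 genes, in bp from the outermost coding start, with the gene drawn as a grey bar and all genes turned to read from left to right. Filled points gather just before the start and around the end of the genes, and hsp-4 and cdc-48.2 have none.

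All regions, over and under the threshold, were also counted in the ranked list of 87350 regions for the replicate comparison. The 10 windows held 59 of them, the 14 conservative peaks included, or 1.60 to 2.93 per kb, against a median of 1.03 per kb over the windows of all coding genes. Inside the genes, more than 500 bp from the end and from every annotated coding start, inner starts included, the strongest of these regions reached 26.7 in hsp-4, 27.6 in trap-1, 32.7 in hsp-3, 35.5 in cdc-48.2, 37.5 in sec-61.A and 41.6 in cdc-48.1. The other 4 genes, sec-61.G, trap-2, trap-3 and trap-4, had none there, but their length leaves little or no room for one. The inside signals all lie under the lowest strongest peak of the 8 genes, 78.0. Weaker conservative peaks of the same genes came closer to them, with 64.0 in hsp-3, 57.7 in trap-4 and 45.0 in cdc-48.1. One in trap-1, at 2.90, lay below them. Ranked regions in a gene but within 500 bp of a coding start, not counted as inside, reached 58.5 in hsp-3, 49.6 in cdc-48.2 and 47.1 in cdc-48.1. The genes measured 486 to 3372 bp, with a median of 1884 bp against 2027 bp for all coding genes.

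The 2 channel genes differed in where their peak lay. Sec-61.G (WBGene00001303, chrV:10896658-10897143, minus strand), for the gamma subunit, had a single conservative peak at chrV:10897276-10897451. Its summit lay 227 bp upstream of the start, in the window printed above. The signal was 256 for both replicates together, 136 in replicate 1 and 119 in replicate 2 (mean 128 ± 12.3, SD, n = 2). Both replicates passed the threshold on their own, and the peak ranked 73 of 2742.

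Sec-61.A (WBGene00013311, chrIV:14822540-14825264, minus strand), for the pore-forming alpha subunit, had its single conservative peak past its end, at chrIV:14822295-14822614 with the summit 85 bp beyond the gene. The signal was 128, with 76.0 in replicate 1 and 45.1 in replicate 2 (mean 60.5 ± 21.8, SD, n = 2). Only the replicate 1 value passed that replicate's own threshold. The −log10 of the irreproducible discovery rate (IDR, which is small for a peak that ranks alike in a pair of data sets) was 1.71 in replicate 2, where 2.00 is needed. Near the outermost start of sec-61.A the ranked list held regions of 33.6 and 31.3, at 47 and 259 bp into the gene. Neither was in a thresholded list. The divergent neighbour rps-18, a gene for a protein of the small ribosomal subunit, begins 414 bp away on that side.

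All 4 TRAP genes had a conservative peak upstream of the start, and 3 of them, all but trap-2, had a further one past the end. Trap-3 (WBGene00021420, chrIV:2389445-2390259, plus strand), for the gamma subunit, had the strongest of them at chrIV:2389031-2389222, 304 bp upstream, with a signal of 257. The replicates gave 143 and 124 (mean 134 ± 13.0, SD, n = 2) and both passed. The peak ranked 70, against 73 for sec-61.G, and the ranges of their replicate values overlapped. The same peak lay 466 bp upstream of the start of sec-61.B, the gene of the beta subunit of the channel, which is transcribed in the opposite direction from a start 770 bp from that of trap-3. The peak also lay wholly within an annotated noncoding RNA gene, Y38F2AR.17. The peak past the end of trap-3, at chrIV:2390368-2390687, had a signal of 93.6, with 48.6 and 57.2 in the replicates (mean 52.9 ± 6.07, SD, n = 2), and passed in replicate 2 alone. It lay 269 bp past the end and 293 bp upstream of the next gene on the strand, eri-5, which encodes a Tudor-domain protein.

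Trap-2 (WBGene00020216, chrX:767023-768069, minus strand), for the beta subunit, had its peak at chrX:768102-768421, 193 bp upstream of the start. The signal was 143, with 77.9 in replicate 1 and 60.4 in replicate 2 (mean 69.1 ± 12.4, SD, n = 2). Both replicates passed. This peak was also 334 bp upstream of the divergent gene ile-2, which encodes an L-type lectin-domain protein and starts 527 bp from trap-2. Past the end of trap-2 the ranked regions reached 21.8.

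Trap-1 (WBGene00022122, chrI:2928395-2929628, plus strand), for the alpha subunit, had its strongest peak past the end, at chrI:2929670-2929749, 107 bp beyond the gene and 42 bp upstream of the next gene on that strand, the nuclear export factor gene nxt-1. The signal there was 126, with 47.1 in replicate 1 and 69.1 in replicate 2 (mean 58.1 ± 15.6, SD, n = 2). The peak 233 bp upstream of the start, at chrI:2928002-2928321, had a signal of 84.0, with 52.6 and 35.2 (mean 43.9 ± 12.3, SD, n = 2). Replicate 1 was thus higher at the start and replicate 2 at the end, so the order of these peaks was not the same in both replicates. All 4 replicate values passed. The 84.0 peak also overlaps the end of the preceding gene on the strand, Y71F9AL.1 (chrI:2925239-2928134). Its summit lies closer to that end than to the start of trap-1, so position alone gives the peak to neither gene. One more conservative peak, 30 bp upstream of the start, had a signal of 2.90 but the maximum score of 1000. It overlaps the 84.0 peak and was matched to the same replicate regions, so it adds no separate measurement.

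Trap-4 (WBGene00013238, chrIII:11920735-11921586, plus strand), for the delta subunit, had the lowest signals of the complex. Its stronger peak, at chrIII:11921574-11921893, had a signal of 78.0, with 44.2 and 35.1 in the replicates (mean 39.7 ± 6.39, SD, n = 2), both over their thresholds. The summit was 148 bp past the end and 42 bp inside the next gene on the strand, Y56A3A.22, annotated with a domain of unknown function. The peak 282 bp upstream of the start, at chrIII:11920293-11920612, had a signal of 57.7, with 25.9 and 36.0 (mean 30.9 ± 7.14, SD, n = 2), and passed in neither replicate alone. In replicate 2 the start and end values differed by less than the replicates did at either place. The upstream peak also lay 216 bp before ccf-1, the gene of a CCR4-NOT deadenylase subunit, whose start is 498 bp from that of trap-4 on the opposite strand.

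In this set, 3 of the 6 genes with an end-side peak had that peak within 500 bp of another gene's coding start. Those were trap-1, trap-3 and trap-4. Among all 1363 coding genes with an end-side peak, 472 (34.6%) did. A peak in such a place cannot be given to either gene from its position alone. The end-side peaks of sec-61.A, hsp-3 and cdc-48.1 had no other coding start within that distance. The ends of other genes were not counted, so this does not assign those peaks to these genes.

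**Figure D3:**
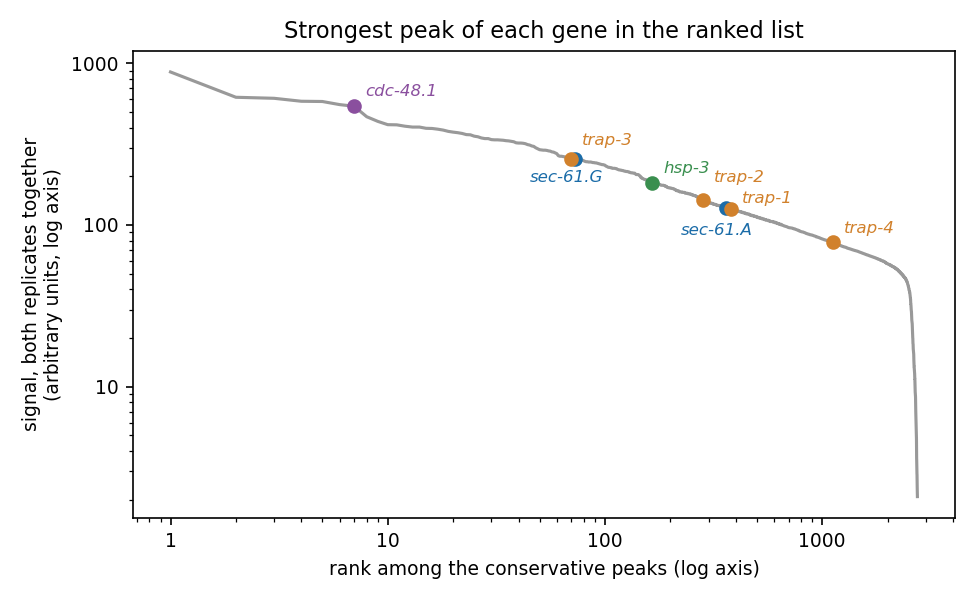
Signal of all 2742 conservative peaks in rank order (line, both axes logarithmic, arbitrary units) with the strongest peak of each of the 8 genes marked. Cdc-48.1 is at rank 7, trap-3 and sec-61.G lie together at 70 and 73, and trap-4 is lowest at 1118.

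The BiP genes differed in the lists that held them. Hsp-3 (WBGene00002007, chrX:6089028-6092124, minus strand) had a conservative peak at chrX:6092138-6092229, 53 bp upstream of its outermost start. The signal was 183, with 112 in replicate 1 and 70.0 in replicate 2 (mean 91.3 ± 30.0, SD, n = 2), and both passed. A weaker conservative peak 260 bp past the end, at chrX:6088608-6088927, had 64.0, with 31.5 and 39.7 (mean 35.6 ± 5.85, SD, n = 2), and neither replicate passed alone. A region of 58.5 in the ranked list lay 175 bp into the gene from the innermost of its 3 annotated coding starts, with a −log10 IDR of 1.41.

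Hsp-4 (WBGene00002008, chrII:7350112-7352645, minus strand) had no peak in any thresholded list. Its strongest ranked region was 51 bp past the end, at chrII:7349901-7350220, with a signal of 54.7 and a −log10 IDR of 0.64. The replicates gave 35.1 and 13.4 there (mean 24.3 ± 15.3, SD, n = 2), a ratio of 2.61 against 1.61 at the start peak of hsp-3. Near the outer starts of hsp-4, where the hsp-3 peak has its counterpart, the ranked region had a signal of 29.5 and a −log10 IDR of 0.20. Taking the strongest ranked region of each gene, hsp-3 was 3.34 times hsp-4 for both replicates together. The ratio was 3.21 in replicate 1 (112 against 35.1) and 3.83 in replicate 2 (70.0 against 18.3, the latter at another place in hsp-4). The genes were chosen with these values known and the ratio has no test.

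Cdc-48.1 (WBGene00007352, chrII:10560036-10563407, minus strand) had the strongest peak of the set, at chrII:10563464-10563688, 171 bp upstream of the start. Its signal was 542, with 269 in replicate 1 and 264 in replicate 2 (mean 267 ± 3.64, SD, n = 2). It ranked 7 of 2742 in the conservative list, 8 of 1393 in replicate 1's thresholded list and 4 of 1276 in replicate 2's. The replicates were closer to each other here than at any other strongest peak of the set. A weak conservative peak at the other end, chrII:10559894-10560213, had its summit 18 bp before the end of the gene, in the 3′ UTR. It had 45.0, with 34.9 and 24.6 (mean 29.8 ± 7.24, SD, n = 2), and passed in neither replicate alone. The introns of cdc-48.1 hold 2 annotated snoRNA genes. A ranked region of 47.1 with its summit 485 bp into the gene spans 1 of them, with a −log10 IDR of 1.13. The strongest region more than 500 bp from either end, 41.6, overlaps neither snoRNA gene. Both regions were outside the thresholded list.

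Cdc-48.2 (WBGene00008053, chrII:8138496-8141230, plus strand) had no conservative peak. The strongest ranked region was 130 bp past its end, at chrII:8141200-8141519, inside the convergent gene ints-11, which encodes a subunit of the Integrator complex and overlaps the end of cdc-48.2. The signal was 69.6, with 49.2 in replicate 1 and 20.4 in replicate 2 (mean 34.8 ± 20.4, SD, n = 2). The region had a score of 800 and a −log10 IDR of 1.93, just outside the threshold of 830 and 2.00, while the other series-wide thresholded list gave it 2.42 and kept it. Just inside the threshold lay the start peak of trap-4, with a score of 865 and a −log10 IDR of 2.08. In the other list's ranking that peak had 1.30 and was not kept. At the start of cdc-48.2 the ranked region was 189 bp into the gene, with 49.6 for both replicates together, 39.3 in replicate 1 and 21.6 in replicate 2. The strongest region of cdc-48.1 was 7.78 times that of cdc-48.2 for both replicates together, 5.47 times in replicate 1 and 12.2 times in replicate 2. The strongest cdc-48.2 region in replicate 2 was the one at the start (21.6). The other ratios use the region past its end, where replicate 2 had 20.4. These genes too were chosen with the values known, and the ratios have no test.

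Within the set, the replicates gave the same broad order at the strong peaks and different orders lower down. Cdc-48.1 was highest in both replicates, followed by trap-3 and sec-61.G. At the strongest peak of each of the 8 genes, replicate 1 was higher in 7, with ratios from 1.02 (cdc-48.1) to 1.68 (sec-61.A), and lower in trap-1 (0.681). Because the scaling of the replicates' lists is not stated, these ratios are read against those of all peaks. Over the 2677 conservative peaks with a region in both replicates the median ratio was 1.21, with quartiles of 0.975 and 1.48. The ratios of sec-61.A and hsp-3 (1.61) were above the upper quartile, and that of trap-1 was below the lower one. The replicates' summits lay 5 to 95 bp apart at these 8 peaks, with 85 bp in trap-1 and 95 bp in trap-4, against a median of 30.0 bp and quartiles of 12 and 67 bp. Among the 14 peaks of the set, 9 met a thresholded peak in both replicates' own lists, 2 in a single replicate's and 3 in neither. The 9 include the trap-1 peaks of 84.0 and 2.90, which met the same replicate regions and are not separate cases. No share over all conservative peaks is given here, so nothing is read from these counts.

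**Figure D4:**
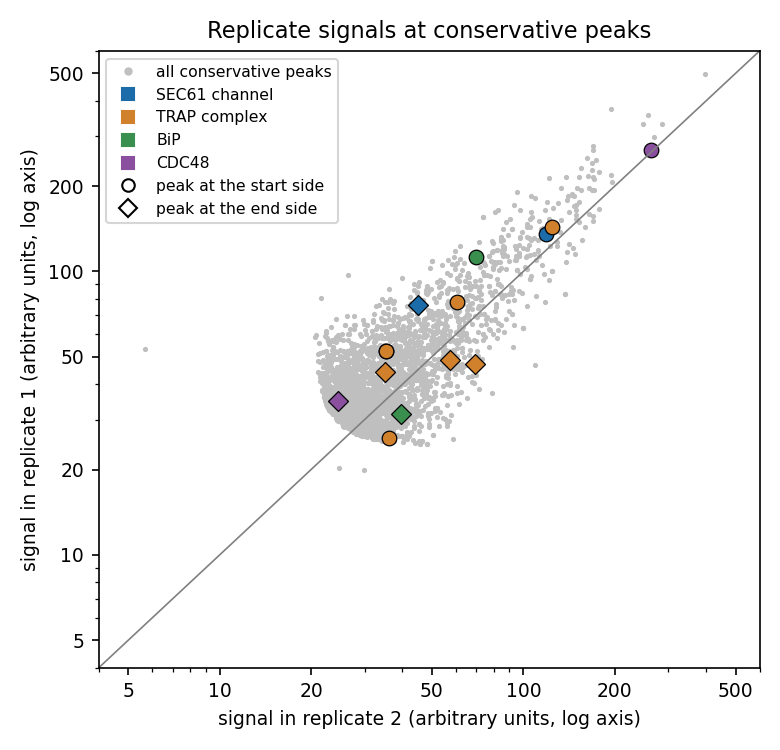
Signal in replicate 1 against replicate 2 (arbitrary units, log axes) for the conservative peaks with a region in both replicates, with the peaks of the 8 genes coloured by complex, circles for the start side and diamonds for the end side. Cdc-48.1 lies on the line of equal signal at 269 and 264, and 4 of the end-side and start-side peaks lie under it.

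The base composition of the windows varied within the set. In the 101 bp around the 7 start-side summits, GC content was 42.6% for cdc-48.1, 49.5% for sec-61.G, 50.5% for trap-4, 53.5% for trap-1, 57.4% for trap-2, 58.4% for trap-3 and 66.3% for hsp-3. The median was 46.5% over all 1224 conservative peaks near coding starts and 33.7% over all coding genes in windows centred 200 bp before the start. The strongest peak, that of cdc-48.1, thus had the lowest GC content of the 7. At the same distance from the start as their partners' summits, the cdc-48.2 window had 26.7% and the hsp-4 window 45.5%. The end-side windows had 32.7% to 49.5%.

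Known elements were sought in the same 101 bp on both strands. The UPR element core TGACGTG, the E-box CACGTG, the GATA-type site TGATAA, the heat-shock element GAANNTTC and the long ER stress element ERSE were in none of the 7 windows. They were in 1.47%, 2.86%, 4.58%, 6.29% and 0% of all start-side peaks and in 0.841%, 1.53%, 11.0%, 6.76% and 0.00501% of the windows before all coding genes. The word TTTGAA, of the cell-cycle element CHR, was in sec-61.G alone (17.7% of start-side peaks, 29.8% of the windows before genes). The TATA word TATAAA was in cdc-48.1 alone (4.66% and 13.1%). The UPR core and the E-box share the letters ACGTG, and TTTGAA ends in the letters with which GAANNTTC begins.

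In the 300 bp before the outermost start, searched after the summit windows had been seen, the UPR core was in hsp-3, 132 bp before the start, and in hsp-4, 83 bp before it, as printed above, and in 2.82% of all coding genes. The hsp-3 element lay outside the conservative peak at chrX:6092138-6092229, though within the wider overlapping region of each replicate. Both BiP genes held the element, and of them hsp-3 had a thresholded peak. Whether the element relates to the peak was not tested. In the same 300 bp, TTTGAA was in 5 of the 10 genes (64.5% of all coding genes), TATAAA in 5 (39.6%), GAANNTTC in trap-3 and hsp-4 (also in 3792 of the 19973 coding genes) and TGATAA in trap-3 (30.8%). CACGTG (5.73%) and ERSE (0.0200%) were in none of them.

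Words of 8 bases shared among the windows were counted without a preset pattern, also after the values were known. Of 629 distinct words, 5 occurred in at least 3 of the 7 windows. GAACTGCA and AACTGCAA were each in sec-61.G, trap-1, trap-3 and trap-4. They were in 0.572% and 0.817% of all start-side peaks and in 0.220% and 0.726% of the windows before genes. GCAAACAC was in trap-1, trap-2 and trap-3 (3.35% and 0.841%). CTGCAAAC (1.14% and 0.355%) and ACTGCAAA (0.654% and 0.701%) were in trap-1, trap-2 and trap-4. Most of these words overlap one another. At least 1 of the 5 was in 5 of the 7 windows, all 4 TRAP genes and sec-61.G, against 4.58% of start-side peaks and 2.22% of the windows before genes. From the summit, with negative values upstream, the words lay at -5 and -6 bp in sec-61.G and 10 to 13 bp in trap-2. Nearer the window's edge, they lay at 38 to 43 bp in trap-1 and 42 to 45 bp in trap-4. In trap-3 they lay at -38, -39 and 44 bp. The words were picked from these same windows, so the difference is a description. Hsp-3 and cdc-48.1, which have strong start peaks as well, held none of the 5.

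The genes around them in the pathway were taken from 5 lists with 50 genes found in the annotation, apart from the 10. The lists held 54 names. Those not found under their names were all in the targeting list, where 9 of 13 were found, and they were left out. Of the 50, 19 (38.0%) had a conservative peak, against the 12.4% of all coding genes given above. Longer genes have wider windows, and the lengths of these 50 were not compared with those of all coding genes. Of 9 genes for targeting, translocon and signal peptidase, 4 had one. Sec-61.B had 257, in the peak shared with trap-3. Of 5 oligosaccharyltransferase genes, which glycosylate proteins as they enter the ER, 3 had one. Dad-1 had 142 at 387 bp upstream (77.3 and 67.8 in the replicates) and ribo-1 had 78.8 at 169 bp past its end (47.1 and 37.1).

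Of 13 ER folding genes, 6 had a conservative peak, from 49.2 to 102. Crt-1, for the chaperone calreticulin, had 102 at 259 bp upstream, with 59.4 and 40.1 in the replicates. Dnj-20, for a DnaJ-type co-chaperone, had 94.8 at 346 bp before its end, with 48.3 and 35.1. The folding genes thus did not reach the 183 of hsp-3. Of 18 genes for ER-associated degradation and CDC-48 cofactors, 2 (11.1%) had one. These were the UBX-domain gene ubxn-3, with 201 at 255 bp past its end (102 and 103 in the replicates), and ubxn-2, with 147 at 158 bp upstream (82.5 and 66.1). The share in this list was near that of all coding genes.

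Of the 5 UPR sensor and effector genes, 4 had a conservative peak. Xbp-1, whose mRNA is spliced by IRE1 to make the transcription factor, had 180 at 90 bp past its end, with 81.0 and 71.0 in the replicates, both over their thresholds. Atf-4, for the transcription factor downstream of PERK in mammals, had 70.1 at 176 bp past its end, with 30.8 and 24.4. Atf-6, for the homologue of a membrane-bound transcription factor, had 64.2 at 307 bp upstream, with 46.2 and 30.3. Both genes had a thresholded peak in replicate 1 alone. Pek-1, the PERK kinase homologue, had 52.4 at 294 bp into the gene, with 27.4 and 27.6, and passed in neither replicate. Ire-1, for the kinase and nuclease that splices xbp-1 mRNA, had none, and its strongest ranked region was 36.9 with a −log10 IDR of 1.00.

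**Figure D5:**
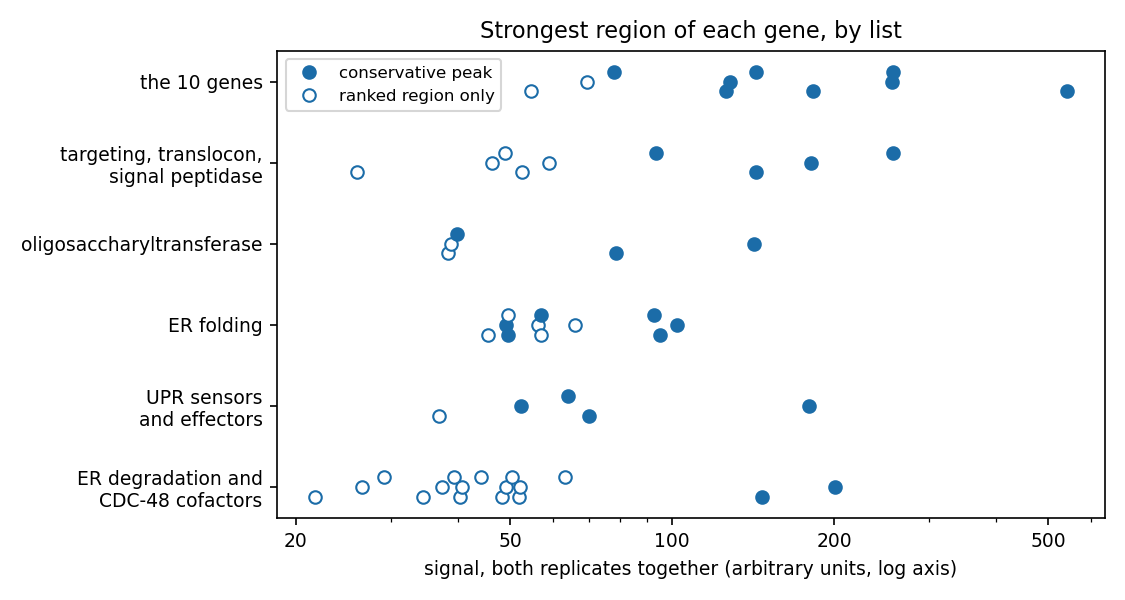
Signal of each gene (arbitrary units, log axis) for the 10 genes and the 5 lists of other pathway genes. Filled points give the strongest conservative peak, even where a ranked region was stronger, as in pek-1 (52.4 against 59.5). Open points give the strongest ranked region of genes without a conservative peak, and 3 genes with no ranked region are left out. The 10 genes span 54.7 to 542, and cdc-48.1 is the highest point in the plot.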

How the data were processed

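Peak lists on ce11, 8 in all, were used as deposited. Per the deposited text descriptions, they derive from filtered alignments and a further input, and were ranked by IDR. Which aligner and peak caller made them, and how, is not given in the sources used here. Signal is the authors' peak caller value. No source says what its scale is or whether depth and control were corrected for, so ratios between replicates are read only against their median over all peaks. The deposited score is an integer form of the IDR, and ranked lists also carry the authors' −log10 IDR. The lowest score in the thresholded lists, 830, stands for an IDR of 0.0100. Replicate signals are those of the overlapping region with the highest signal, joined by at least 1 bp.

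Summits were placed on Ensembl release 115 genes (WBcel235), and all lay within their chromosomes. Coordinates are 1-based. A peak within 500 bp of both ends of a gene was counted for the nearer one. Python 3.11.15 and matplotlib 3.10.9 were used, and the search by position was tested on simulated data. No count model or test was applied.

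The genes, gene lists and motifs were chosen with earlier results of these data known. Named were all 10 genes, each coding gene with a start within 500 bp of one of their summits, the 2 highest genes of each pathway list, and every UPR gene. A gene that this rule names is not reported here. Neighbours named for overlap or as the adjacent gene (rps-18, ints-11, Y38F2AR.17, Y71F9AL.1), the 150 and 300 bp stretches, the shared words and the ratios between paralogues were added after values were seen. Alternatives covered the window, the list, the threshold, each replicate alone and the motif window.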

Additional observations from a re-analysis of the deposited data

How the results depend on the processing

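The count of genes with a conservative peak (8 of 10) ranged from 7 to 9 over the alternatives. It was 7 within 250 bp (trap-3 was lost) and near coding starts alone (sec-61.A was lost), and 9 in the other list (cdc-48.2 was added). Each replicate's own list gave 7 and 8. The count in both replicates' lists (7) was 6 or 7. For the 50 other pathway genes, 19 had a peak, and 11 had one near coding starts alone. Replicate 1's own list gave 13, against 7.30% of all coding genes, and replicate 2's list 12, against 6.55%. No share of all coding genes is given here for the other windows or for coding starts alone. Motif matches rose from 2 to 6 when the window was 100 bp to each side. Of the 6, 3 were TTTGAA and 2 were TATAAA, words that also became more common among all start-side peaks. TTTGAA was in 36.7% of those peaks at this width, against 17.7% in the 101 bp, and TATAAA in 14.1% against 4.66%. The remaining match was the UPR core in hsp-3, found in 2.45% of start-side peaks against 1.47%. The median strongest signal, 163, was 143 within 250 bp, and 70.0 to 95.2 with a single replicate, whose lists carry lower values. Of the single-gene signals, 23 of 23 kept their value over windows and lists, and 15 of 15 moved with a single replicate. Both series-wide thresholded lists give these peaks the same signals, and single-replicate lists carry lower values. These counts therefore say little about stability. Trap-3 gives no value within 250 bp, nor sec-61.A in replicate 2's list. No paired analysis was possible because there is 1 group. With 2 replicates and unknown depth, the absence of a peak in hsp-4 or cdc-48.2 means only that none passed at this depth.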
